A study of Mus musculus with 6 samples.

Results

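The kappa variable segments, named Igkv with a family number and a position number, were taken from the deposited expression table by their symbol. Of the 30777 genes of the table, 111 carried a symbol that starts with Igkv, 97 annotated as functional variable segments and 14 as pseudogenes. They fall into 19 families by the number after Igkv, and they lie side by side on chromosome 6 of the mouse build GRCm38, chr6:67555497-70704177, 46 on the plus strand and 65 on the minus strand. Colon tissue of BALB/c mice gave the RNA, in 6 libraries. In 3 libraries the mice had been given 5-fluorouracil, a cytotoxic drug that blocks thymidine synthesis and damages dividing cells of the gut lining. In the other 3 the mice had been given 5-fluorouracil and berberine, a plant alkaloid. These groups are called 5-Fu and 5-Fu+BBR, and the design asks which genes go with berberine. All 6 libraries come from mice given 5-fluorouracil, and no untreated mice were analysed here. The labels used here give no dose, time or age, and they do not say whether the libraries of a group are separate animals, so a p-value measures only the spread between these libraries.

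An antibody is made of heavy and light chains, and most mouse light chains are of the kappa type. During B cell development in the bone marrow, a recombinase joins a kappa variable segment to a joining segment (Igkj), and splicing connects the joined exon to the constant segment (Igkc). Each variable segment encodes a leader peptide and most of the chain's variable domain, including the start of its hypervariable loop CDR3. A segment on the same strand as Igkc joins by deletion of the DNA between them, and a segment on the opposite strand joins by inversion. In the colon most of this RNA comes from plasma cells that secrete IgA, each of which transcribes its rearranged chain at a very high level, so the segments seen in bulk tissue follow both the number of such cells and their clones.

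The segments are similar in sequence, which bears on every value below. The 97 functional segments had coding sequences of 338 to 371 bases in 2 exons in the GENCODE M21 annotation of GRCm38, and the gene identifiers and coordinates of 111 of 111 members matched it. Median identity was 89.0% over 515 pairs within a family and 62.7% over 4141 pairs between families. Of the 97, 44 had another segment at least 95% identical, and these 44 held 61.3% of the Igkv counts. Reads of 150 bases can be shared among such copies, so a count of a single segment in them is uncertain. The reference is that of the strain C57BL/6J while the mice were BALB/c, and the part of strain differences in the counts was not tested.

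The last 300 bases of the coding sequence of 6 segments are shown, up to the end of the germline segment. Capitals run from the codon of the conserved cysteine just before the hypervariable loop CDR3 to the end, where a joining segment is attached. The first pair were among the segments of highest level and differ by 10 bases over the coding sequence (97.2% identity), 3 of them in capitals. They are Igkv1-117 (ENSMUSG00000094335, chr6:68121046-68121827, plus strand) and Igkv1-110 (ENSMUSG00000093861, chr6:68270485-68271267, plus strand).
Igkv1-117: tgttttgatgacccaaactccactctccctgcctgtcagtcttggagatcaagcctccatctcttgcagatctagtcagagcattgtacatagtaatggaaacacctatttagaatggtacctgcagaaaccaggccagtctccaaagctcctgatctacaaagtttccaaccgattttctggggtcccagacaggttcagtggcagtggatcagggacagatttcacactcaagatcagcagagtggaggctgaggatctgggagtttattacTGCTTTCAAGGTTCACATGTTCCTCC
Igkv1-110: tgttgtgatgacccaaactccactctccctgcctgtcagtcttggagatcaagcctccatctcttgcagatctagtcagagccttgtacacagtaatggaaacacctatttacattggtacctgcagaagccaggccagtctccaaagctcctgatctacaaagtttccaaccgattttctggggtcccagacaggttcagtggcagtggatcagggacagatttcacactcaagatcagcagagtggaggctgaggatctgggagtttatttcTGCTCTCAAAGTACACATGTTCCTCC
Igkv10-96 (ENSMUSG00000094420, chr6:68631963-68632442, minus strand) and Igkv12-44 (ENSMUSG00000096422, chr6:69814631-69815154, minus strand) are shown because the first was higher in every 5-Fu+BBR library and the second took a smaller share of the kappa counts there. They are 71.0% identical.
Igkv10-96: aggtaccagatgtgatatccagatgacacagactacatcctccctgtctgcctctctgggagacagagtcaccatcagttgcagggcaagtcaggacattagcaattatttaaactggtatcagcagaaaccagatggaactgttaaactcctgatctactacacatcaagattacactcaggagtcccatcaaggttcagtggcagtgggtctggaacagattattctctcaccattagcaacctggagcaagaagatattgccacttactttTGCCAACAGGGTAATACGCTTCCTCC
Igkv12-44: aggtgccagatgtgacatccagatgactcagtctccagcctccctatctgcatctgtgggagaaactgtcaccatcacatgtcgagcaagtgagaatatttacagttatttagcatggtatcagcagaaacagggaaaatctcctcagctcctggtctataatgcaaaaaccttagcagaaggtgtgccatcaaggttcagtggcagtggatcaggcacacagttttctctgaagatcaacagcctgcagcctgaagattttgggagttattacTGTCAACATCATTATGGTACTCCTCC
Igkv3-7 (ENSMUSG00000076598, chr6:70607437-70608036, plus strand) is the segment that passed the test, and Igkv3-12 (ENSMUSG00000094117, chr6:70518250-70518849, plus strand) is its close copy. They differ by 12 bases over the coding sequence (96.7% identity), 2 of them in capitals.
Igkv3-7: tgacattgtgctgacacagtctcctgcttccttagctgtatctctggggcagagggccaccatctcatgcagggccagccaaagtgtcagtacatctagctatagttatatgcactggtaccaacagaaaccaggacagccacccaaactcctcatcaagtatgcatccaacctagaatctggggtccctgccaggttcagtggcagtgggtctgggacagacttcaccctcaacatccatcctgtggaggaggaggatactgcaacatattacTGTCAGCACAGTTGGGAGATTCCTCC
Igkv3-12: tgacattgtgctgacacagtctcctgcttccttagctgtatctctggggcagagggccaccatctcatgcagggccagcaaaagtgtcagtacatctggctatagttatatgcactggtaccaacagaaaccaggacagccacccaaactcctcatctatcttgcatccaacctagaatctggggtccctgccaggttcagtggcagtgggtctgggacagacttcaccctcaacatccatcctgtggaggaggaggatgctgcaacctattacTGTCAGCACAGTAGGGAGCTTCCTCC

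The summed level of kappa variable RNA was higher in every 5-Fu+BBR library than in any 5-Fu library, 1 of 92 tested segments passed the test for a single gene, and the shares of the families overlapped with 1 exception among the larger families. Summed over the 111 segments, the level was 307, 385 and 661 CPM (deposited counts scaled to TMM-adjusted library size) in 5-Fu libraries 1 to 3 and 687, 1608 and 1637 CPM in 5-Fu+BBR libraries 1 to 3. The groups did not overlap, but 5-Fu+BBR 1 stood barely above 5-Fu 3, and the other two 5-Fu+BBR libraries stood far above both. The means were 451 ± 186 and 1311 ± 540 CPM (SD, n = 3 each), a ratio of 2.9. With 5-Fu+BBR 1 alone against the 3 5-Fu libraries, the log2 ratio was 0.606 in place of 1.54. The segments made up 0.0307% to 0.0622% of all counts in 5-Fu and 0.0657% to 0.169% in 5-Fu+BBR. The libraries 5-Fu+BBR 2 and 3 also stood apart in kidney markers, which summed over 10 genes to 218 and 214 CPM there and to between 65.3 and 85.5 CPM in the other 4 libraries, and the part of this in the kappa level was not tested. In bulk tissue, fewer cells of a type and less RNA per cell cannot be told apart.

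**Figure D1:**
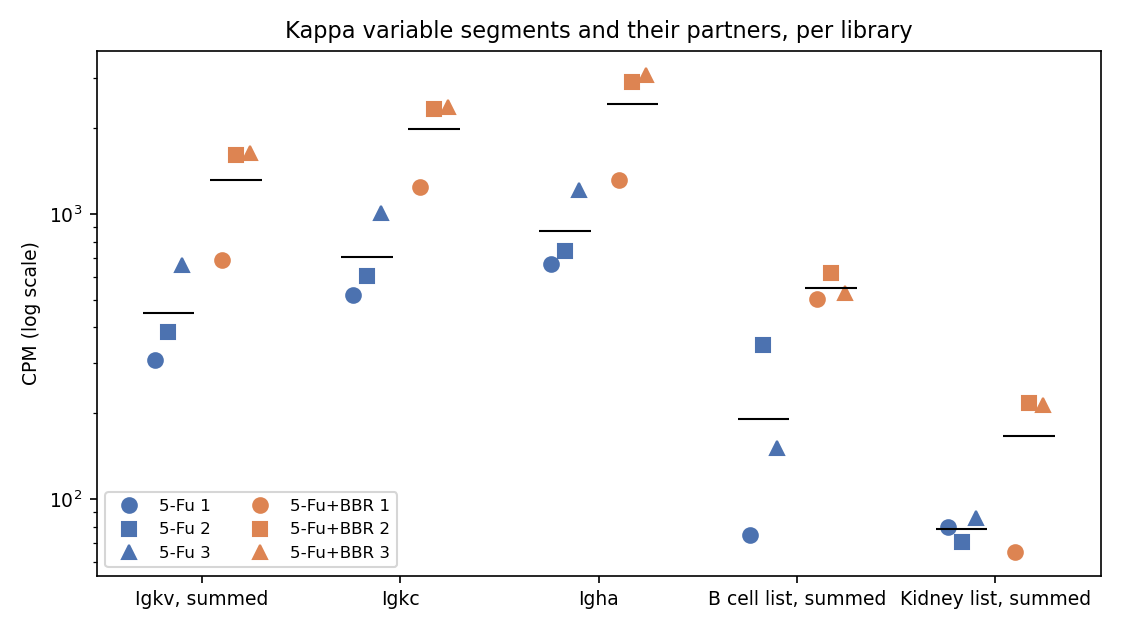
Levels per library in CPM (log scale) of the summed Igkv segments, the constant segments Igkc and Igha, and the summed B cell and kidney marker lists; each point is a library and each line the mean of 3. The summed Igkv level was 307 to 661 in 5-Fu and 687 to 1637 CPM in 5-Fu+BBR, where libraries 2 and 3 were high for Igkv, Igkc, Igha and the kidney list alike.

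Of the 111 segments, 92 passed the filter on low counts, 91 functional ones and 1 pseudogene, and 19 did not. By edgeR's quasi-likelihood test, with p adjusted over the 20101 tested genes of the table, 1 segment passed an adjusted p of 0.05 as higher with berberine and 0 as lower; over all genes these shares were 0.0597% higher and 0.0149% lower. At an unadjusted p under 0.05, 45 segments were higher and 0 lower, where 9.48% of all genes were higher and 6.08% lower. DESeq2 called 36 segments higher and 0 lower, where it called 4.37% of all genes higher and 1.73% lower. The limma-voom fit called 2 higher and 0 lower, against 0.0846% and 0.0199% of all genes. The fitted log2 fold change was positive for 86 of the 92 and negative for 6, where 50.7% of all genes were positive. It was at least 1 for 73 of the 92, where 7.87% of all genes reached 1. The median over the 92 was 1.55, with quartiles of 1.11 and 2.17, and the median over all genes tested was 0.01. In 40 segments every 5-Fu+BBR library was above every 5-Fu library, in 0 it was below, and in 52 the groups overlapped, against 12.3% above and 9.68% below over all genes. The filter asked for enough counts in as many libraries as a group holds, whichever group they belong to. A segment that passed only through the group where it is high had to differ. These counts therefore describe the segments tested and not all 111.

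The higher level was uneven over the 5-Fu+BBR libraries. In 5-Fu+BBR 2, 74 of the 92 tested segments (80.4%) lay above every 5-Fu library, and in 5-Fu+BBR 3, 72 (78.3%). In 5-Fu+BBR 1, 44 (47.8%) did. Over all genes tested the shares were 28.6%, 29.8% and 28.6% in 5-Fu+BBR libraries 1 to 3, which are close to each other. Over all 111 segments, 87 had their highest CPM in 5-Fu+BBR 2 or 3, 7 in 5-Fu+BBR 1 and 17 in a 5-Fu library. With 5-Fu+BBR 1 alone against 5-Fu, 64 of 99 tested segments had a positive fold change. For these counts of highest CPM and of positive fold change, the shares over all genes are not given here.

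The fold change was positive for 86 of the 92 tested segments, and Igkv3-7 was the only segment that passed edgeR's test after adjustment. Its level was 2.65, 2.11 and 2.68 in 5-Fu and 9.28, 15.0 and 14.1 CPM in 5-Fu+BBR. The 5-Fu libraries were close together and all 5-Fu+BBR libraries were well above them, 5-Fu+BBR 1 included. The means were 2.48 ± 0.318 and 12.8 ± 3.08 CPM (SD). By edgeR this was a log2 fold change of 2.37 ± 0.25 (SE) with an adjusted p of 0.0228. The call was lost without 5-Fu 1 (adjusted p = 0.136), without 5-Fu+BBR 2 (0.219) and without 5-Fu+BBR 3 (0.0652). In these fits the log2 fold change was 2.41, 2.24 and 2.30, and with 5-Fu+BBR 1 alone it was 1.89. Over all genes, 0 were called without 5-Fu 1 and 0 without 5-Fu+BBR 2. Without 5-Fu+BBR 3, 16 of all genes were called higher and 1 lower. The call of Igkv3-7 was also lost when it was summed with its copy Igkv3-12. The pair was at 8.75, 8.66 and 19.2 in 5-Fu and 28.5, 48 and 59.9 CPM in 5-Fu+BBR, a log2 fold change of 1.9 ± 0.41 with an adjusted p of 0.14. The pair still did not overlap between groups.

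The copies matter for the other segments too. Segments linked by at least 95% identity were summed into units, which gave 84 units, 17 of them of more than 1 segment. Of the 67 units tested, 64 had a positive fold change and 0 passed in either direction, with p adjusted over 20076 genes. In the main fit, 50.7% of all genes were positive, 0.0597% passed as higher and 0.0149% as lower. The unit of Igkv10-94, Igkv10-95 and Igkv10-96 was at 31.8, 34.3 and 43.9 in 5-Fu and 69.8, 119 and 82.3 CPM in 5-Fu+BBR, with an adjusted p of 0.0893. The groups did not overlap in that unit, and the lowest 5-Fu+BBR library was well above the highest 5-Fu library.

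Behind Igkv3-7, the segments with the smallest p did not pass. Igkv4-92 (ENSMUSG00000076531, chr6:68755038-68755593, minus strand) had 0 counts in all 3 5-Fu libraries and 48, 69 and 82 counts in 5-Fu+BBR. Taking 12 counts over the 5-Fu libraries as the most that could be missed, it was at least 16.9-fold higher, with an adjusted p of 0.0566. Igkv12-38 was at 0.414, 0.402 and 0.69 in 5-Fu and 4.11, 3.06 and 2.62 CPM in 5-Fu+BBR. Both are low segments in which the 5-Fu+BBR libraries resembled each other, with 5-Fu+BBR 1 the lowest in Igkv4-92 and the highest in Igkv12-38. The log2 fold change of Igkv12-38 was 2.70 ± 0.37 (adjusted p = 0.0628). Igkv3-5, a further member of the Igkv3 family, was at 4, 5.45 and 4.28 CPM against 12, 19.5 and 12.6 CPM, a log2 fold change of 1.68 ± 0.25 (adjusted p = 0.0705). Igkv8-19 was at 4, 1.49 and 2.58 CPM against 10.1, 15.4 and 10.2 CPM (log2 fold change 2.15 ± 0.37, adjusted p = 0.0923). In all of these no 5-Fu+BBR library fell into the 5-Fu range, which in Igkv4-92 followed from the filter.

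Of the segments next in order of p, Igkv12-89 was at 0.383 ± 0.183 against 1.95 ± 0.135 CPM and Igkv4-72 at 4.36 ± 1.34 against 19.6 ± 9.68 CPM. Igkv4-63 was at 0.744 ± 0.245 against 4.83 ± 3.0 CPM and Igkv5-45 at 1.15 ± 0.399 against 6.47 ± 4.07 CPM. Their adjusted p lay between 0.102 and 0.119, and their groups did not overlap. In Igkv4-63 and Igkv5-45 the high mean came mostly from 5-Fu+BBR 2 and 3, with 5-Fu+BBR 1 at 1.72 and 2.98 CPM.

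The leading segments came from several families. The 10 with the highest mean CPM were Igkv1-117, Igkv1-110, Igkv10-96, Igkv12-44, Igkv4-59, Igkv3-2, Igkv3-12, Igkv16-104, Igkv8-21 and Igkv9-120, and all 10 were also the 10 highest by the deposited FPKM, which is scaled to length. They held 38.9% of the Igkv counts on average over libraries. Igkv1-117 was at 15.8, 37 and 41 in 5-Fu and 51.4, 153 and 162 CPM in 5-Fu+BBR. Every 5-Fu+BBR library was above every 5-Fu library, with 5-Fu 1 the lowest of all. The log2 fold change was 1.97 ± 0.56 (adjusted p = 0.214). Its relative Igkv1-110 was at 24.9, 23 and 41.1 CPM against 31.3, 55.8 and 122 CPM (log2 fold change 1.23 ± 0.53, adjusted p = 0.345). There 5-Fu+BBR 1 lay inside the 5-Fu range. Per length, the mean FPKM of Igkv1-117 was 64.8 in 5-Fu and 257 in 5-Fu+BBR, and that of Igkv1-110 was 61.4 and 148.

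Igkv10-96 was at 24.4, 20.1 and 34.2 in 5-Fu and 62.9, 97.8 and 55.1 CPM in 5-Fu+BBR. In this segment 5-Fu+BBR 1 was higher than 5-Fu+BBR 3, and the groups stood clear of each other. Its log2 fold change of 1.46 ± 0.27 had an adjusted p of 0.108. Igkv12-44 was at 18.8, 31.9 and 44.3 in 5-Fu and 33.6, 14.7 and 65.6 CPM in 5-Fu+BBR. The lowest of its 6 values belonged to 5-Fu+BBR 2, a library in which 74 of the 92 tested segments lay above every 5-Fu library. Its log2 fold change was 0.26 ± 0.58 (adjusted p = 0.874), with a sign that depends on single libraries.

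**Figure D2:**
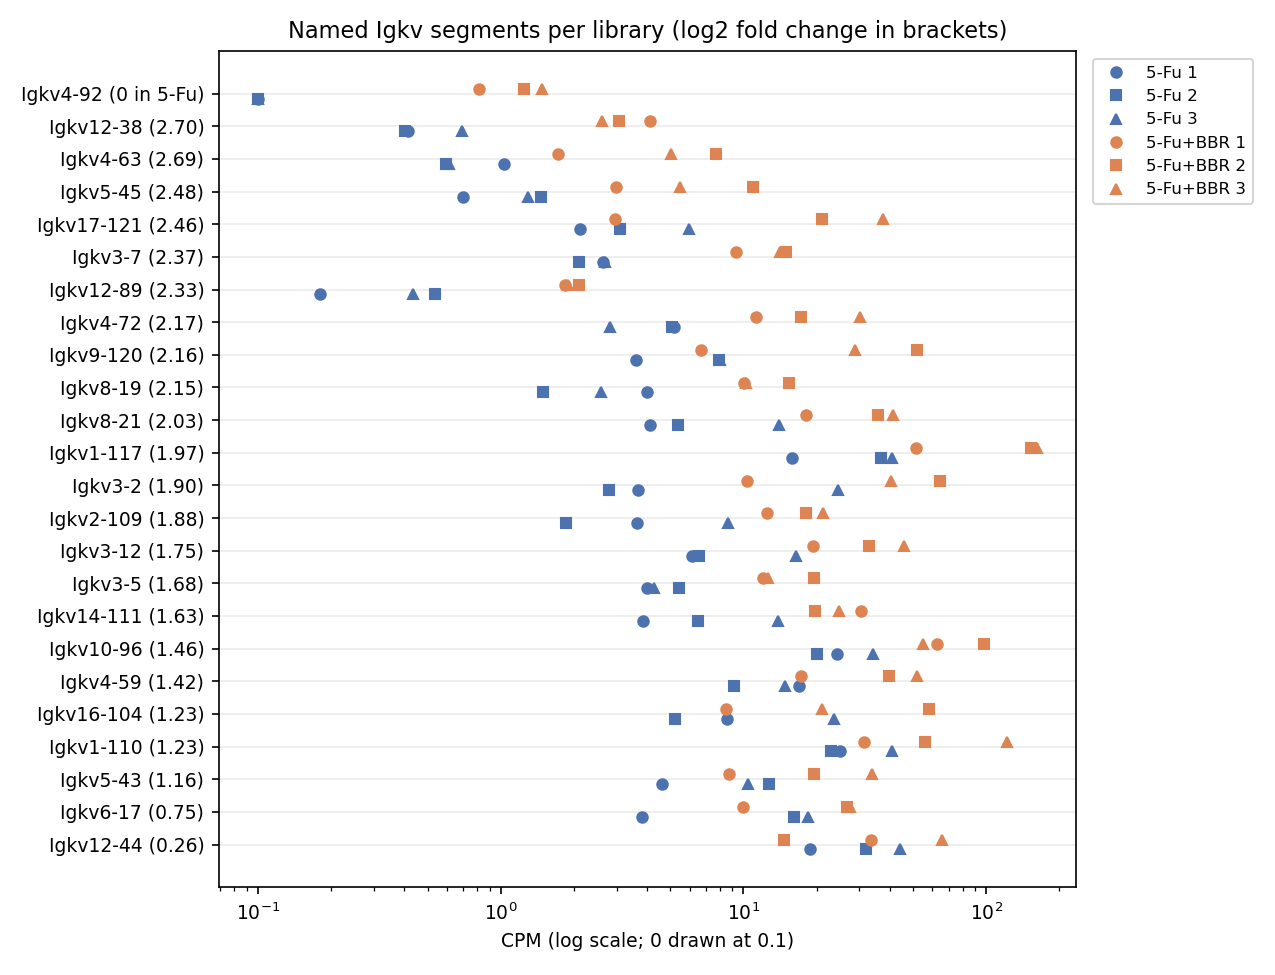
Level in CPM (log scale, 0 drawn at 0.1) of the 24 named Igkv segments in each library, ordered by log2 fold change, which stands in brackets. In Igkv3-7 the 5-Fu libraries lie at 2.11 to 2.68 CPM and the 5-Fu+BBR libraries at 9.28 to 15.0 CPM, while the libraries of both groups are mixed in Igkv12-44.

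The other leading segments split into those in which the groups stood apart and those in which they overlapped. Igkv8-21 was at 7.83 ± 5.34 against 31.8 ± 12.2 CPM, Igkv3-12 at 9.71 ± 5.86 against 32.7 ± 13.3 CPM and Igkv4-59 at 13.6 ± 4.01 against 36.3 ± 17.5 CPM. In these, as in Igkv14-111 (8.07 ± 5.19 against 25 ± 5.29 CPM) and Igkv2-109 (4.72 ± 3.52 against 17.3 ± 4.45 CPM), the groups did not overlap. For Igkv4-59 the gap was narrow, between 16.9 CPM for library 5-Fu 1 and 17.3 CPM for library 5-Fu+BBR 1. Igkv14-111 is the exception to the order of the libraries, since 5-Fu+BBR 1 was the highest at 30.4 CPM.

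The groups overlapped in the other named segments. Igkv3-2 was at 3.67, 2.8 and 24.5 in 5-Fu and 10.3, 64.6 and 40.6 CPM in 5-Fu+BBR. Igkv16-104 was at 8.52, 5.2 and 23.7 CPM against 8.44, 58.1 and 21.1 CPM. A high 5-Fu 3 and a low 5-Fu+BBR 1 were common to both. Igkv17-121 (3.73 ± 1.99 against 20.5 ± 17.3 CPM), Igkv9-120 (6.52 ± 2.51 against 29.1 ± 22.6 CPM), Igkv5-43 (9.28 ± 4.2 against 20.7 ± 12.6 CPM) and Igkv6-17 (12.8 ± 7.84 against 21.5 ± 9.92 CPM) also had their 5-Fu+BBR 1 value within the 5-Fu range. Adjusted p over these 6 segments lay between 0.271 and 0.642.

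Segments near the limit of detection were seen in few libraries. A count was present for 85, 92 and 97 of the 111 segments in 5-Fu and for 100, 102 and 103 in 5-Fu+BBR, so more segments were seen where the summed level was higher. Of the 111, 81 had a count in all 6 libraries. There were 10 at 0 in all 5-Fu libraries, 8 of them pseudogenes, and 3 at 0 in all 5-Fu+BBR libraries. A count of 0 in a group allows up to 12 counts there, taken as 3 fragments of 4 counts. Besides Igkv4-92, the functional Igkv1-132 and the pseudogene Igkv4-60, both named after their values were seen, exceeded that floor in 5-Fu+BBR, at least 4.25-fold and 4.51-fold above it. Igkv1-132 had 38, 6 and 6 counts in 5-Fu+BBR libraries 1 to 3, so most came from 5-Fu+BBR 1 alone. Igkv4-60 had 25, 8 and 20 counts there. The reverse was seen for Igkv20-101-2, also named after its values were seen, with 0, 149 and 5 counts in 5-Fu and 0 in every 5-Fu+BBR library. Most of its counts came from 5-Fu 2 alone.

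Family usage is the share of a library's Igkv counts that falls to each family. Of the 19 families, 13 held at least 2% of the counts. Igkv4, the family with the most segments at 31, took 19.8%, 16.6% and 17.3% in 5-Fu and 18.9%, 17% and 18% in 5-Fu+BBR. Igkv1, with 9 segments, took 17.4%, 19.2% and 15.6% against 14%, 15.6% and 18.9%. The means of Igkv4 were 17.9% ± 1.66 and 17.9% ± 0.921, and those of Igkv1 were 17.4% ± 1.8 and 16.2% ± 2.5. In both families the difference of the means was smaller than the spread within a group.

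The next families were of middle size. Igkv6 took 9.3% ± 1.17 in 5-Fu and 11.1% ± 1.78 in 5-Fu+BBR, Igkv3 took 9.62% ± 1.98 and 11.2% ± 0.267, Igkv10 took 8.63% ± 1.87 and 7.54% ± 2.57, and Igkv8 took 7.4% ± 2.29 and 8.17% ± 1.29. Each of these overlapped between groups. The smaller families Igkv5 (4.63% ± 1.14 and 3.47% ± 0.216), Igkv9 (2.7% ± 0.675 and 4.07% ± 1.83), Igkv16 (2.57% ± 1.13 and 2.04% ± 1.36), Igkv2 (2.38% ± 0.909 and 2.65% ± 0.503), Igkv14 (2.14% ± 0.576 and 2.79% ± 1.98) and Igkv17 (1.49% ± 0.397 and 2.36% ± 1.3) overlapped as well. In 5-Fu+BBR 1 the Igkv14 share was 5.07%, and in the other 5 libraries it was between 1.48% and 2.49%. Igkv16 is a single segment, and its share varied within each group, with 2.77%, 1.35% and 3.58% in 5-Fu and 1.23%, 3.61% and 1.29% in 5-Fu+BBR.

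Of the 13 families, 12 overlapped between groups in their share, 0 were higher in every 5-Fu+BBR library and 1, Igkv12, was lower in every one. Igkv12 took 7.77%, 10.6% and 11.6% in 5-Fu and 6.83%, 3.89% and 5.84% in 5-Fu+BBR. All 3 values of 5-Fu+BBR were below the lowest of 5-Fu, with means of 10% ± 2 and 5.52% ± 1.5. With 3 libraries against 3, the smallest two-sided p of an exact permutation test is 0.1, and the shares were given no test. A separation in 1 of 13 families can therefore arise with no difference in usage. Of the 92 tested segments, 9.78% had a share higher in every 5-Fu+BBR library and 4.35% a share lower in every one. The difference rested on Igkv12-44, which held 60.9% of the family's counts and took 6.13%, 8.28% and 6.7% of all Igkv counts in 5-Fu against 4.89%, 0.911% and 4.01% in 5-Fu+BBR. Without it the family took 1.75%, 2.57% and 5.25% against 2.04%, 3.0% and 1.91%, and the groups overlapped. The level of the family was 47.2 ± 27.0 in 5-Fu and 68.3 ± 24.9 CPM in 5-Fu+BBR, with overlap.

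**Figure D3:**
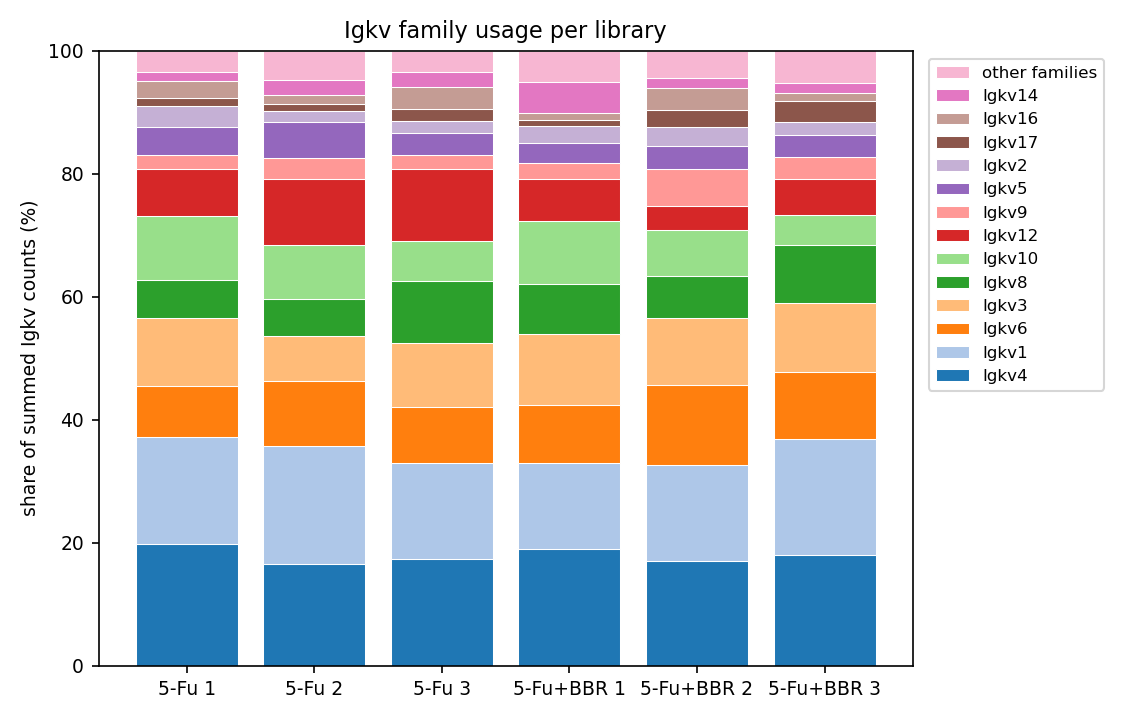
Share of the summed Igkv counts (%) taken by each family in each library; the bars stack to 100%, and the 6 families under 2% are joined as other families. The bars look alike in both groups, apart from Igkv12, at 7.77% to 11.6% in 5-Fu and 3.89% to 6.83% in 5-Fu+BBR.

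By level rather than share, 7 of the 13 families were higher in every 5-Fu+BBR library, and the other 6 overlapped. Over all genes tested, 12.3% were higher in every 5-Fu+BBR library and 50.7% had a positive fold change. Igkv4 was at 79.6 ± 30.1 against 232 ± 89.6 CPM, with positive fold changes in 21 of 25 tested segments (median log2 fold change 1.68). Igkv3 was at 43.8 ± 21.9 against 146 ± 58.1 CPM, with 9 of 9 tested segments positive (median 1.68). Igkv6 was at 42.2 ± 17.8 against 151 ± 75.9 CPM, with 9 of 9 positive (median 2.44). These families also did not overlap. Igkv1 was at 76.8 ± 24.8 against 219 ± 110 CPM and did overlap, with 6 of 7 positive (median 1.16). Among the 6 families under 2%, Igkv19, made of the single segment Igkv19-93, was higher both in level (4.38, 3.56 and 6.78 CPM against 10.6, 28.5 and 31.2 CPM) and in share (1.42%, 0.924% and 1.02% against 1.54%, 1.77% and 1.91%).

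Distances in segment usage between libraries of a group overlapped with those between groups. The distance between 2 libraries was taken as the share of counts that would have to move from some segments to others to make their usage equal. It was 25.7 to 27.8 percentage points within 5-Fu, 22.6 to 26.9 within 5-Fu+BBR and 24.9 to 30.8 between the groups. For families it was 11.9 to 12.3 points within 5-Fu, 10.6 to 13.8 within 5-Fu+BBR and 9.19 to 16.1 between. The ranges overlap at both levels, and the smallest family distance of all, 9.19 points, was between 5-Fu 1 and 5-Fu+BBR 1. Of the 92 tested segments, 9 (9.78%) had a share that was higher in every 5-Fu+BBR library and 4 (4.35%) a share that was lower in every one. Igkv3-7 was among the 9, at 0.861%, 0.549% and 0.405% against 1.35%, 0.933% and 0.863%, and there 5-Fu 1 and 5-Fu+BBR 3 nearly met. Igkv12-44 was among the 4.

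Within a group, the share of a segment could differ by several points between libraries. Igkv10-96 took 9.15% of the Igkv counts in 5-Fu+BBR 1, 6.08% in 5-Fu+BBR 2 and 3.37% in 5-Fu+BBR 3. Igkv1-117 took 5.14%, 9.62% and 6.19% in 5-Fu. Igkv6-25, named after its values were seen, took 0.842%, 3.34% and 0.771% in 5-Fu+BBR.

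The breadth of usage also overlapped. The effective number of segments, which is the number of equally used segments with the same Shannon entropy, was 45.7, 45.7 and 49.9 in 5-Fu and 49.0, 52.2 and 49.3 in 5-Fu+BBR. By the inverse Simpson index it was 30.6, 29.0 and 35.1 against 32.4, 35.5 and 32.7. Both measures overlapped between groups. The most used segment of a library held 6.7% to 9.62% in 5-Fu and 9.15% to 9.9% in 5-Fu+BBR, and the 10 most used held 43.4% to 47.9% and 40.5% to 44.2%. No library was dominated by 1 segment.

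By position the locus was split into 4 blocks of 28, 28, 28 and 27 segments in the order of their coordinates. Block 3, from Igkv4-63 to Igkv8-30 (chr6:69377944-70117620), took 28.0%, 26.6% and 28.2% of the Igkv counts in 5-Fu and 21.9%, 19.4% and 24.4% in 5-Fu+BBR, with no overlap. Igkv12-44 lies in it, and without that segment the shares were 23.3%, 20.0% and 23.0% against 17.9%, 18.7% and 21.3%, with overlap. The other blocks overlapped between groups. The block nearest to Igkc, from Igkv6-29 to Igkv3-1, took 23.8% ± 2.46 in 5-Fu and 27.5% ± 1.32 in 5-Fu+BBR. Segments on the minus strand, opposite to Igkc, held 57.5% ± 0.399 and 54.9% ± 3.28 of the counts, also with overlap.

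**Figure D4:**
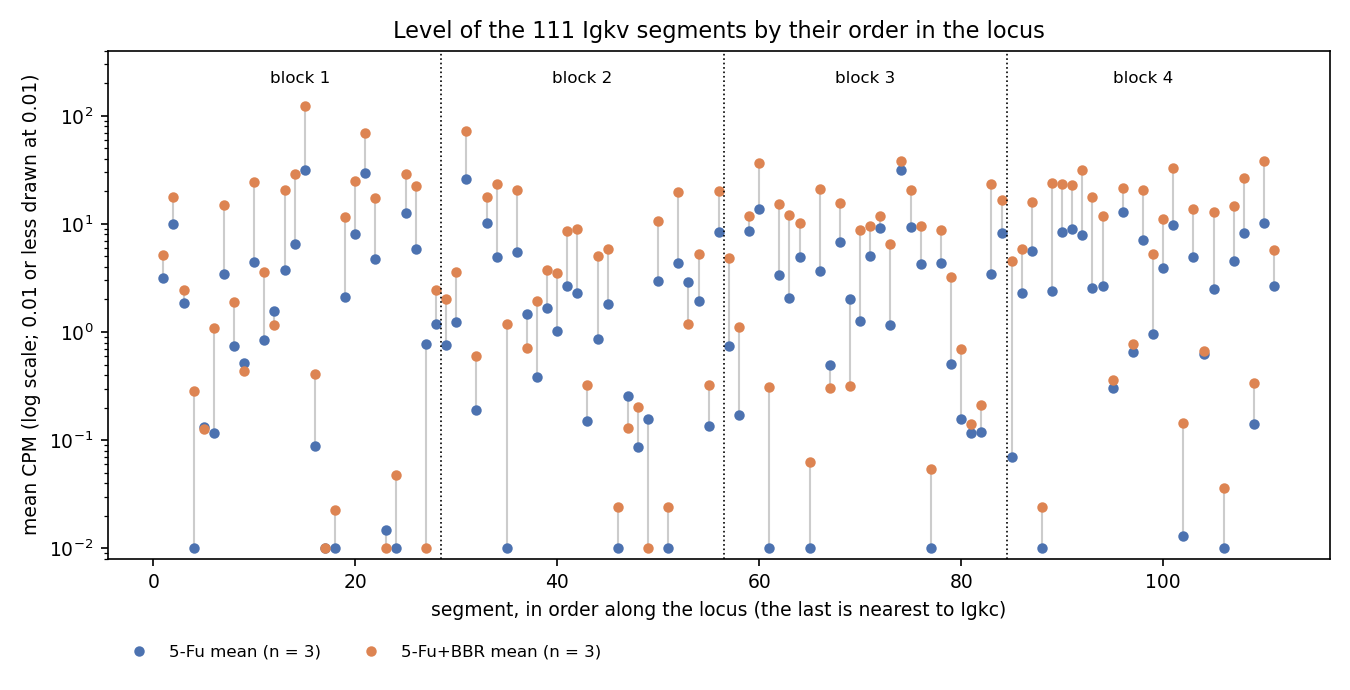
Mean CPM (log scale, values of 0.01 or less drawn at 0.01) of the 111 Igkv segments in each group, in their order along the locus; vertical lines join the means of a segment and dotted lines divide the 4 blocks. High and low segments alternate along the whole locus, and the 5-Fu+BBR mean is the upper point in most segments of every block.

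The genes the segments are joined to had like values. Igkc was at 518, 604 and 1004 in 5-Fu and 1248, 2341 and 2372 CPM in 5-Fu+BBR, with the same order of libraries as the summed variable segments. The summed Igkv level divided by Igkc was 0.593, 0.637 and 0.659 in 5-Fu and 0.551, 0.687 and 0.69 in 5-Fu+BBR, means of 0.63 ± 0.0334 and 0.643 ± 0.0797. The joining segments Igkj1 to Igkj5 summed to 16.0, 17.9 and 31.1 CPM against 34.4, 82.7 and 79.7 CPM. Igkj3, known in mice as a joining segment that does not give a functional chain, had 0.147 ± 0.0525 and 0.407 ± 0.0453 CPM, and Igkj1 had 7.78 ± 3.64 and 22.4 ± 7.71 CPM. All 6 kappa joining and constant genes were higher in every 5-Fu+BBR library, where 12.3% of all genes were. Their median log2 fold change was 1.51.

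The ratios to the heavy chain side overlapped between groups. Divided by Igha, the IgA heavy constant segment, the summed Igkv level was 0.462, 0.52 and 0.544 in 5-Fu and 0.522, 0.556 and 0.531 in 5-Fu+BBR. Divided by the 111 heavy variable segments (Ighv), it was 3.39, 3.51 and 2.73 against 3.18, 3.03 and 3.23. Divided by the lambda light chain genes it was 4.62, 6.54 and 1.77 against 5.36, 4.72 and 3.59, where 5-Fu 3 stood apart with 375 CPM of lambda RNA. In each of these ratios the groups overlapped. Iglc1, a lambda constant segment, was at 22.4, 13.9 and 156 in 5-Fu and 30.9, 94.1 and 150 CPM in 5-Fu+BBR, with overlap. Iglc2, another, was at 6.88, 11.2 and 18.8 in 5-Fu and 23.5, 61.8 and 62 CPM in 5-Fu+BBR, without overlap (adjusted p = 0.179 by edgeR). The 81 tested Ighv segments had the same median log2 fold change as the kappa segments, 1.55, with 77 positive, 34 higher at an unadjusted p under 0.05 and 1 passed, Ighv7-3, named after its values were seen. Of the 9 tested lambda genes, 9 were positive and 0 passed, with 5 at an unadjusted p under 0.05. Over all genes tested, 50.7% were positive and 9.48% were higher at that p.

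The kappa joining, heavy constant, plasma cell, B cell, segment joining, IgA transport and survival factor lists held 60 tested genes. Of these, 0 passed by edgeR, and 34 were higher and 0 lower at an unadjusted p under 0.05 (9.48% and 6.08% of all genes). DESeq2 called 25 higher (4.37% of all genes). All 9 heavy constant and J chain genes were positive (median log2 fold change 1.48). Of 18 plasma cell genes, 16 were positive (50.7% of all genes were), with a median of 0.53. The other genes, Xbp1 and Ell2, had log2 fold changes of -0.13 and -0.03. Of the 18, 4 were higher in every 5-Fu+BBR library, where 12.3% of all genes were. At an unadjusted p under 0.05 by edgeR, 6 of the 18 were higher and 0 lower (9.48% and 6.08% of all genes). The summed level of the 18 was 1323 to 1567 in 5-Fu and 1540 to 2400 CPM in 5-Fu+BBR, with overlap. Tnfrsf17, the receptor BCMA that keeps plasma cells alive, was at 0.27, 0.179 and 0.907 in 5-Fu and 0.998, 2.88 and 3.01 CPM in 5-Fu+BBR. Jchain, which links IgA into dimers, was at 283 ± 92.7 and 849 ± 420 CPM, and Mzb1, a chaperone of antibody assembly, at 14.8 ± 12.3 and 31.7 ± 13.3 CPM. Both overlapped between groups, with 5-Fu+BBR 1 (365 and 16.4 CPM) below 5-Fu 3 (389 and 29.0 CPM). Sdc1, which epithelial cells also express, was at 142 ± 9.7 and 152 ± 15.6 CPM.

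Markers of B cells that do not secrete were higher with the variable segments but in another order of libraries. All 16 B cell genes were positive, and all 16 were higher in every 5-Fu+BBR library (median log2 fold change 1.48). Over all genes tested, 50.7% were positive and 12.3% were higher in every 5-Fu+BBR library. The summed level of the 16 was 74.6, 347 and 151 in 5-Fu and 505, 623 and 528 CPM in 5-Fu+BBR. The libraries 5-Fu 2 and 5-Fu+BBR 1 were thus high in B cell markers for their kappa level: the Igkv level per B cell list level was 4.12, 1.11 and 4.38 in 5-Fu and 1.36, 2.58 and 3.1 in 5-Fu+BBR. Ms4a1, which encodes the B cell surface protein CD20, was at 12.4 ± 9.45 and 42.6 ± 8.85 CPM.

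Of the recombination genes, Rag2 had 0 CPM in 5 libraries and 0.0722 CPM in 5-Fu+BBR 3, and Dntt had at most 0.217 CPM. These levels are at or near 0. Of the 7 genes of IgA transport and homing, 6 were positive (median 0.95). Pigr, which carries IgA across the epithelium, was at 3422 ± 854 and 3883 ± 471 CPM, and Ccl28, which attracts IgA plasma cells, at 178 ± 43.4 and 177 ± 16.2 CPM. Of the 3 tested survival factors, 3 were positive (median 0.34).

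Markers of other tissues were also higher in 5-Fu+BBR. Beside the counts below, 12.3% of all genes tested were higher in every 5-Fu+BBR library and 50.7% had a positive fold change. All 8 fat genes were higher in every 5-Fu+BBR library, with a summed level of 31.7 to 44.2 in 5-Fu and 108 to 193 CPM in 5-Fu+BBR. Adipoq, an adipocyte hormone, was at 0, 1.64 and 0 CPM in the 5-Fu libraries and at 7.44, 12 and 7.47 CPM in the 5-Fu+BBR libraries. All 6 smooth muscle genes were too, at 2199 to 2864 CPM and 4086 to 4655 CPM. Of 10 T cell genes, 10 were positive and 9 did not overlap (31.3 to 43.9 CPM and 64.4 to 107 CPM), and of 7 genes of lymphoid follicles and lymph nodes, 6 were positive (91.5 to 171 CPM and 213 to 279 CPM). Kidney genes were positive in 7 of 9 and split the 5-Fu+BBR libraries as the variable segments did. Their summed level was 70.5 to 85.5 CPM in 5-Fu, 65.3 CPM in 5-Fu+BBR 1 and 218 and 214 CPM in 5-Fu+BBR 2 and 3. Kap, a kidney androgen-regulated protein, was at 7.89, 7.92 and 10.5 in 5-Fu and 10, 109 and 105 CPM in 5-Fu+BBR. Of the 50 tested genes of these lists and the epithelial one, 0 passed by edgeR, and 33 had an unadjusted p under 0.05, all but 1 of them higher. At that p, 9.48% of all genes were higher and 6.08% lower. DESeq2 called 25 of the 50 higher (4.37% of all genes). The part of other tissue in the samples in the higher kappa level was not tested. Colon epithelium markers were present throughout, at 6314 to 9135 CPM and 8022 to 9846 CPM, with 0 of 10 at an unadjusted p under 0.05.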

How the data were processed

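RNA was measured in colon tissue of BALB/c mice, 3 libraries of 5-fluorouracil and 3 of 5-fluorouracil and berberine, grouped by the treatment that the labels give. Per the labels' protocols, Trizol RNA was selected with oligo(dT), and libraries with dUTP strand marking and molecular identifiers were read as pairs of 150 bases. The build GRCm38 and the tools HISAT2 2.0.4, StringTie 1.3.4d, cutadapt 1.9, UMI-tools, edgeR and DESeq2 come from the submitters' processing notes, which state neither their order nor their use. Which annotation was counted is not given in the sources. The authors deposited whole-number estimated counts per gene, and FPKM, which divides fragments by transcript length and library depth.

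The estimated counts were used as deposited. They summed to 53824752 to 63831168 per library. They come in steps: of the values of genes with 1 transcript, 2526 were equal to 4, against 1349 equal to 3 and 718 equal to 5, so 1 fragment may stand for about 4 counts, and the precision of low counts is less than their size would give. Bounds against a group with 0 counts use a floor of 12 counts for the group and cover counting error only. Genes were filtered with filterByExpr (20101 of 30777 left), scaled by TMM and fitted in R 4.3.3 with edgeR 4.0.16 (quasi-likelihood, robust, two-sided, no covariates), with Benjamini-Hochberg adjustment over the whole table. The biological coefficient of variation was 0.296. Sums, shares and ratios over the segments were given no test. Chi-square values per gene between libraries were 82.1 to 238.3, so no pair agreed within sampling noise.

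Coding sequences were read from the GENCODE M21 transcripts of GRCm38 and aligned with Biopython 1.88. Figures were drawn with matplotlib 3.10.9. The segments, gene lists and rule for named genes were chosen with earlier results of these data known. The rule named the 10 segments of highest mean CPM, those that passed, the 10 of smallest p, the highest of each family with at least 2% of the counts, and fixed partner genes, of which some are not reported here. Alternatives were DESeq2 size factors, DESeq2 1.42.0, limma-voom (limma 3.58.1), no filter, at least 50 counts in 3 libraries, counts divided by 4, an adjusted p of 0.1, a replicate block, FPKM, other choices of segments and leaving out each library. The steps were tested on simulated counts, with 200 changed genes in each of 3 simulations. Of the 2-fold changes 54.3% were found and of the 4-fold changes 85.3%, and 9.5% of the calls were false. The labels do not say how reads that match several copies were counted; a sum over copies is not touched by how reads were divided among them, but reads that were dropped would be missing.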

Additional observations from a re-analysis of the deposited data

How the results depend on the processing

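The direction of the summed level held under every alternative run, and the count of segments called did not. In place of 1 Igkv segment, 5 were called without a filter on low counts, 36 by DESeq2, 2 by limma-voom and 5 at an adjusted p under 0.1. With a library left out 0 to 5 were called, and with similar segments summed 0. In place of 0 pathway genes, 1 was called without the filter, 25 by DESeq2, 1 at an adjusted p under 0.1 and 0 to 10 with a library left out. In place of 0 genes of other tissues, 5, 25 and 5 were called under the same settings, 1 by limma-voom and 0 to 8 with a library left out. Over all genes, 12 were called higher and 3 lower in the main fit. Without the filter, 64 of 30777 were called higher and 13 lower. At an adjusted p under 0.1, 119 of 20101 were called higher and 25 lower. DESeq2 called 879 higher and 347 lower, and limma-voom 17 and 4. With a library left out, 0 to 145 of all genes were called higher and 0 to 15 lower. With the replicate block, 9 segments, 7 pathway genes and 2 genes of other tissues were called. Over all genes, 91 were then higher and 22 lower. The correlations of same-numbered libraries' deviations were 0.0579, 0.0242 and 0.123, the last the highest of all pairs. Those of differently numbered libraries were -0.146 to 0.104, and 5-Fu 2 correlated best with 5-Fu+BBR 1 (0.104). Correlations this weak cannot decide whether same-numbered libraries are pairs.

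The log2 ratio of the summed level, 1.54, was 1.33 to 1.92 with a library left out and 0.606 with 5-Fu+BBR 1 alone. The distance between the groups' mean family usage, 8.73 points, was 10.9 without Igkv1-117, 7.34 without Igkv12-44, 10.2 with 5-Fu+BBR 1 alone and 7.8 to 10.2 with a library left out. The difference in effective number, 3.06, was 2.06 to 4.43 with a library left out. The difference in the ratio to Igkc, 0.0128, was -0.0792 with 5-Fu+BBR 1 alone and -0.0109 to 0.0588 with a library left out. The difference in block 3 of the locus, -5.69 points, was -2.83 without Igkv12-44 and -6.93 to -4.43 with a library left out. Of 359 values of the 24 named segments, 352 kept their direction and 7 reversed. Among these, the 24 values at an adjusted p under 0.1 repeat the main fit and could not reverse. Igkv12-44 was at -0.01 without 5-Fu 1 and -0.39 without 5-Fu+BBR 3 (range -0.39 to 0.65 with a library left out). With 5-Fu+BBR 1 alone, Igkv3-2 was at -0.00, Igkv16-104 at -0.57, Igkv17-121 at -0.34, Igkv5-43 at -0.10 and Igkv6-17 at -0.36. Igkv3-7 passed under 11 of 15 alternatives, of which the adjusted p under 0.1 repeats the main fit and had to pass. Where no group was cut to a single library, its adjusted p ran from 1.33e-15 (DESeq2) to 0.219 (edgeR without 5-Fu+BBR 2). The sum with Igkv3-12, in which the call was lost (adjusted p = 0.14 by edgeR), is not among the 15. The causes of these changes were not tested. The alternatives with 5-Fu+BBR 1 alone, with similar segments summed and without Igkv12-44, and all those of the lists and of position, were chosen after seeing the data. With 1 library in a group, that library is assumed to vary like the others. Low segments rest on few fragments, and single segments with close copies are less certain than families and sums.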
